A study of Mus musculus with 12 samples.

Results

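The 3 embryonic globin genes of the mouse and 5 transcription factors of red cell development and globin switching were followed through whole embryos at E12.5 (embryonic day 12.5) of 2 mutant lines. The 8 genes were taken by name from 23420 listed in each of the 2 tables of counts, and all 8 passed the filter on low counts. *Hbb-bh1* and *Hbb-y* encode the embryonic beta-like globins, and *Hba-x* encodes the embryonic alpha-like globin zeta. *Klf1*, *Gata1*, *Sox6*, *Bcl11a* and *Myb* encode the transcription factors.

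The *Carm1* line (strain C57BL/6 per the labels) gave 3 *Carm1* KO/KO embryos, homozygous for the targeted null allele tm1Mtb of an arginine methyltransferase, and 3 wild-type embryos. The *Pax3* line gave 3 *Pax3* Sp2H/Sp2H embryos, homozygous for a Splotch null allele, and 3 wild-type embryos of a closed colony of mixed background (CBA/Ca, 101 and C3H/He). In each line heterozygotes were intercrossed, all embryos were untreated and of the same age, and each whole embryo was homogenized and gave 1 library of polyadenylated RNA. Each allele is present in every tissue, blood and others alike, and the tissue in which its loss acts on a blood gene was not tested.

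Hemoglobin holds alpha-like and beta-like chains, and different genes of each cluster are used as development proceeds. Primitive red cells from the yolk sac carry embryonic globins and switch among them as they mature, from *Hbb-bh1* towards *Hbb-y* and from *Hba-x* towards the adult alpha genes. Definitive red cells, made in the fetal liver, carry adult globins, and both kinds circulate in midgestation. KLF1 and GATA1 activate globin and other red cell genes, BCL11A and SOX6 repress embryonic beta-like globins in definitive cells, and MYB keeps definitive progenitors dividing.

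*Hbb-bh1* (chromosome 7, 103841637 to 103843164, minus strand, 3 exons) and *Hbb-y* (chromosome 7, 103851749 to 103853216, minus strand, 3 exons) are neighbours in the beta-globin cluster of mm10. Since their balance carries the main result, the opening 90 coding bases of each are shown, counted from the A of the start codon, with capitals where the genes differ.
Hbb-bh1: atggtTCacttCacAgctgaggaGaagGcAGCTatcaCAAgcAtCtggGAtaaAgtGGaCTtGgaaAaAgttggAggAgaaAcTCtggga
Hbb-y: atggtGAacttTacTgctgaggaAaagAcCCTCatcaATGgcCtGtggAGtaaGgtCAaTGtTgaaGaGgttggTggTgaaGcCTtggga
They differ at 30 of these 90 bases and at 104 of all 441 coding bases (76.4% identity). No stretch of 150 bases, the length of a read, in the transcript of *Hbb-bh1*, *Hbb-y* or *Hba-x* was identical to a stretch of another globin transcript, so a full-length read within an exon of these genes can be assigned to 1 gene.

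*Hba-x* (chromosome 11, 32276400 to 32278116, plus strand, 3 exons) lies at the start of the alpha-globin cluster. RefSeq (GRCm38.p6) lists a promoter for 7 of the 8 genes. The 130 bases before the RefSeq start are shown for *Hbb-y* and *Hba-x*, the embryonic beta-like and alpha-like genes whose counts moved apart in *Carm1* KO/KO embryos. The gene spans given above are from GENCODE, whose starts differ. The *Hba-x* stretch therefore lies inside its gene span, and the *Hbb-y* stretch overlaps the edge of its own. Positions below count from the RefSeq start. Capitals mark the letters searched on both strands, which were CACCC (as in KLF sites), GATAA (as in GATA sites), TGACCA (as in BCL11A sites), AACAAT (as in SOX sites), CCAAT (the CCAAT box) and TATAAA (the TATA box).
Hbb-y, chr7:103853208-103853337, minus strand: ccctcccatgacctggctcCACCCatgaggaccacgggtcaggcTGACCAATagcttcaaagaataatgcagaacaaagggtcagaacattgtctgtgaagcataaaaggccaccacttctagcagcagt
Hba-x, chr11:32276470-32276599, plus strand: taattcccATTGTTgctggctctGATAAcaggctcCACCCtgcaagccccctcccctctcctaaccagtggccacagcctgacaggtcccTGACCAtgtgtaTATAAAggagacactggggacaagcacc
Both stretches hold a CACCC run, and both hold a TGACCA run. In *Hbb-y* the TGACCA at -86 and the CCAAT at -83 share letters. *Hba-x* further holds GATAA at -107, AACAAT on the other strand at -122 and TATAAA at -28. Of 32851 promoters of 300 bases in the RefSeq table, 57.5% hold CACCC, 25.4% GATAA, 13.6% TGACCA, 10.7% AACAAT, 37.4% CCAAT and 13.6% TATAAA, so each of these short runs is frequent.

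Total counts lay between 17183344 and 23518692 per library. *Carm1* RNA was at 72.3 ± 3.55 CPM (counts scaled to library size; SD, n = 3) in *Carm1* KO/KO and at 144 ± 6.99 CPM in wild-type embryos, and *Pax3* RNA at 20.8 ± 2.40 against 28.1 ± 2.99 CPM in its line, so each targeted gene was lower in all 3 mutant libraries. At least 100 Y-linked counts were found in wild-type replicate 3 of the *Carm1* line and, in the *Pax3* line, in mutant replicate 3 and wild-type replicates 2 and 3. All CPM values are scaled by TMM (edgeR's correction for library composition), and changes are log2 fold changes, mutant over wild type, from edgeR's quasi-likelihood fit across all genes kept. Calls are Benjamini-Hochberg adjusted *P* values under 0.05 over those genes. No source states that the 3 embryos of a group came from separate litters, and *P* values measure the spread between these libraries.

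In *Carm1* KO/KO embryos *Hbb-bh1* rose, *Klf1*, *Gata1* and *Sox6* fell, and *Hbb-y*, *Bcl11a*, *Myb* and *Hba-x* did not pass the test. Thus 4 of the 8 genes were called, 1 higher and 3 lower, where 13.3% of the 15811 genes tested were called in either direction (5.49% higher and 7.83% lower). The groups did not overlap for 5 of the 8, against 30.0% of all genes tested. The median change was -0.07 over the 8 genes and 0.001 over all genes tested.

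*Hbb-bh1*, the beta-like globin used earliest in primitive red cells, was at 451, 482 and 470 CPM in the 3 *Carm1* KO/KO libraries and at 140, 181 and 247 CPM in the 3 wild-type libraries. Every mutant library was above every wild-type library, and the mutant libraries lay close together while the wild-type libraries were spread. The log2 fold change was 1.30 ± 0.231 (SE; 2.47-fold, edgeR adjusted *P* = 0.0370). *Hbb-bh1* was called under 12 of 17 alternatives, among them DESeq2 (adjusted *P* = 3.35e-06) and one fit of all 12 libraries (edgeR adjusted *P* = 0.00452). The call was lost when some single libraries were left out. The edgeR adjusted *P* was 0.128, 0.127 and 0.122 without *Carm1* KO/KO replicate 1, 2 or 3 and 0.142 without wild-type replicate 2. Log2 fold changes lay between 1.13 and 1.54 over all alternatives. With a term for Y-linked counts the log2 fold change was 1.54 (edgeR adjusted *P* = 0.00214).

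*Hbb-y*, the most abundant of the embryonic globins, stood at 4715, 5110 and 5639 CPM in *Carm1* KO/KO and at 3692, 5266 and 7031 CPM in wild-type embryos. All 3 mutant values fell inside the wild-type range. Its log2 fold change was -0.05 ± 0.271 (edgeR adjusted *P* = 0.941), and the sign turned under 4 of 17 alternatives. The wild-type library with Y-linked counts was the highest in *Hbb-y*, and without it the log2 fold change was 0.20 (edgeR adjusted *P* = 0.651).

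*Hba-x* was measured at 1761, 1828 and 2125 CPM in *Carm1* KO/KO and at 636, 870 and 1164 CPM in wild-type embryos. Again no mutant library reached down to the wild-type range. The log2 fold change was 1.10 ± 0.261 (2.14-fold), with an edgeR adjusted *P* of 0.0773, so *Hba-x* missed the threshold. It was called under 6 of 17 alternatives, among them DESeq2 (adjusted *P* = 0.000814), one fit of all 12 libraries (edgeR adjusted *P* = 0.0212) and edgeR without wild-type replicate 3 (adjusted *P* = 0.0445). That was the only 1 of the 6 fits without a single library to call it. With a term for Y-linked counts the log2 fold change of *Hba-x* was 1.34 (edgeR adjusted *P* = 0.0443).

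**Figure D1:**
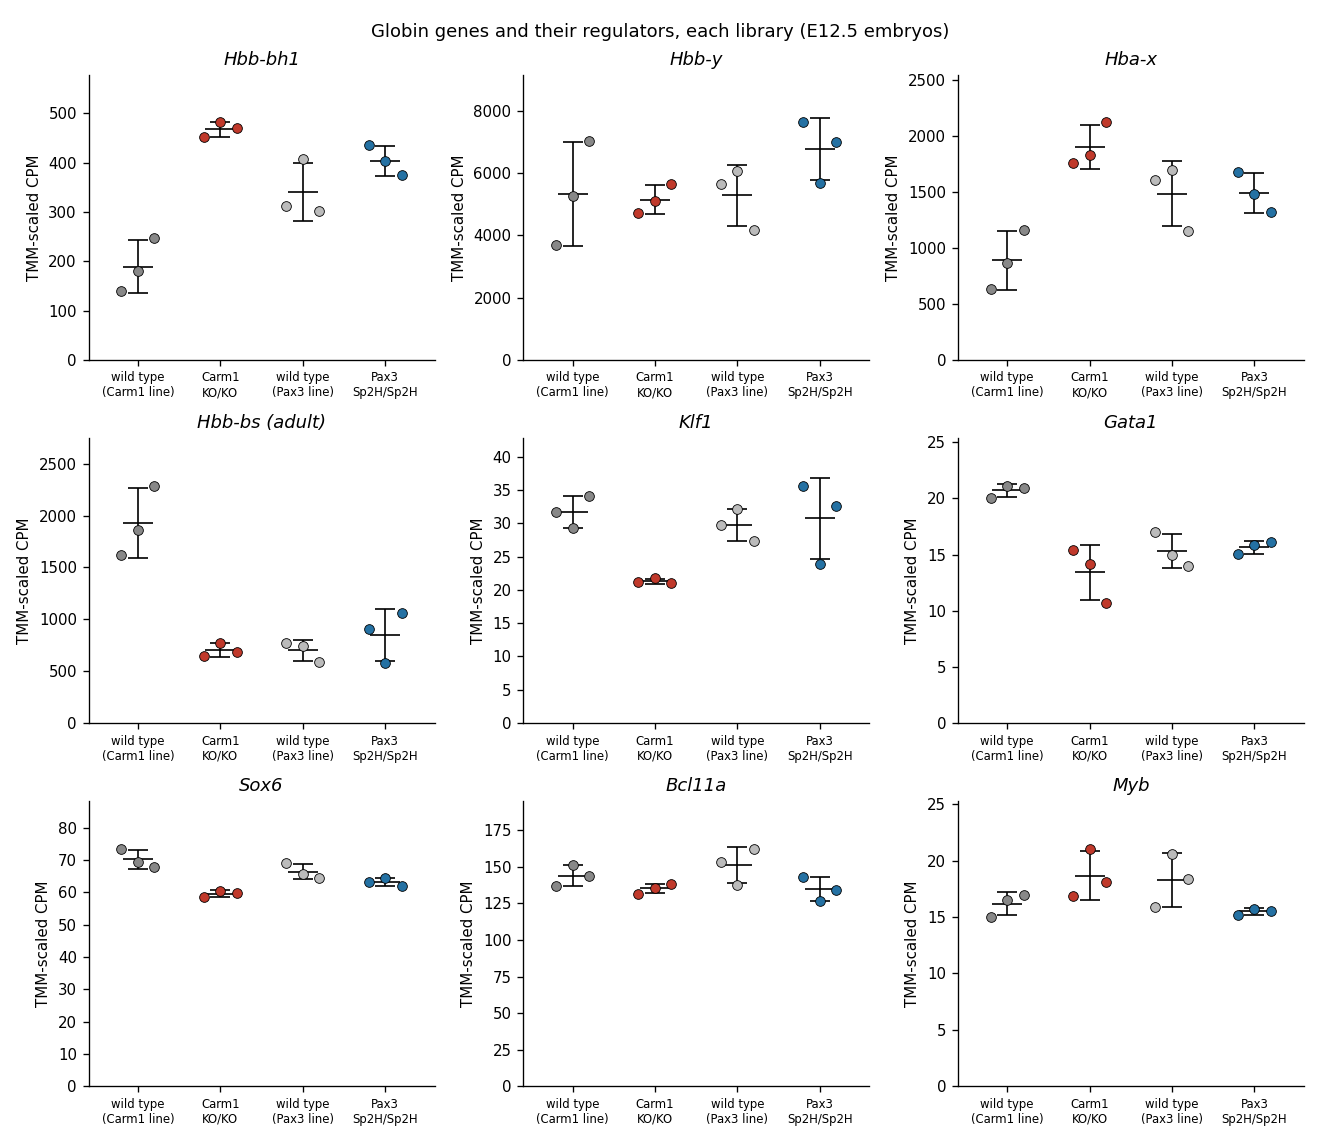
Each panel plots TMM-scaled CPM (linear axis from 0) of 1 gene for the 4 groups, with 1 point per library and a bar at the mean ± SD (n = 3). For *Hbb-bh1*, the *Carm1* KO/KO points sit between 451 and 482 CPM, above all 3 wild-type points of that line, whereas the points of *Klf1* and *Gata1* sit below them.

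Shares of counts within a library do not depend on its depth. *Hbb-bh1* made up 8.73%, 8.62% and 7.69% of the embryonic beta-like counts (*Hbb-bh1* plus *Hbb-y*) in *Carm1* KO/KO libraries and 3.65%, 3.32% and 3.39% in wild-type libraries. The means were 8.35 ± 0.571% and 3.45 ± 0.173%, with no overlap. The 2-sided exact permutation *P* of 0.1 is the smallest that 3 libraries against 3 can give. The 95% Wilson interval, which covers counting error only, ran from 8.55% to 8.91% for the highest and from 3.22% to 3.42% for the lowest of these 6 shares.

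For each embryonic beta-like count there were 0.341, 0.327 and 0.348 *Hba-x* counts in *Carm1* KO/KO libraries. In wild-type libraries the ratio was 0.166, 0.160 and 0.160. The means of 0.339 ± 0.0107 and 0.162 ± 0.00361 differed 2.09-fold, with no overlap (exact permutation *P* = 0.1, the smallest possible). Wild-type libraries thus differed widely in the amount of embryonic globin RNA but little in its composition. The summed embryonic globins took 0.702% to 0.809% of all counts in *Carm1* KO/KO and 0.438% to 0.855% in wild-type libraries (exact permutation *P* = 0.5).

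**Figure D2:**
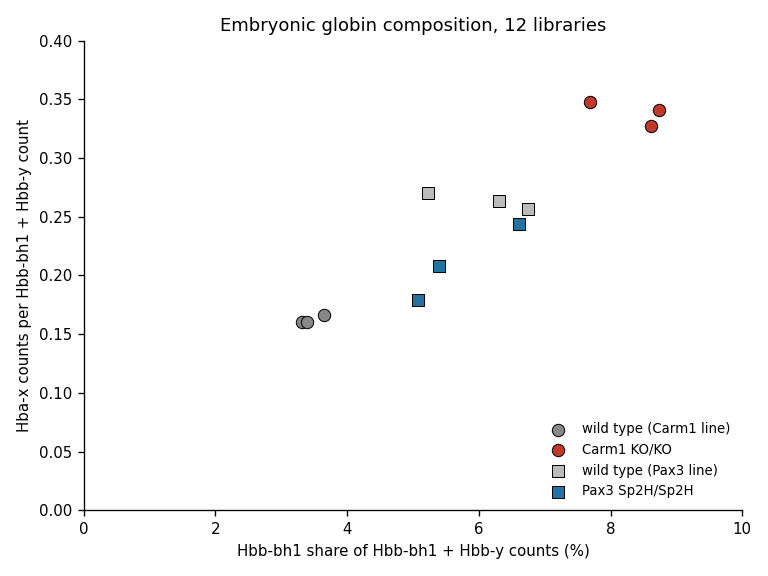
The *Hbb-bh1* share of embryonic beta-like counts (percent, horizontal axis) is plotted against *Hba-x* counts per embryonic beta-like count (vertical axis), with 1 point per library. The 3 *Carm1* KO/KO libraries lie at 7.69% or more and 0.327 or more, the wild-type libraries of that line at 3.65% or less and 0.166 or less, and the 6 libraries of the *Pax3* line in between.

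The adult beta-globin gene *Hbb-bs*, listed in the tables under its older symbol *Beta-s*, was found only after the values had been seen and is given for comparison. Its CPM was 644, 773 and 688 in *Carm1* KO/KO and stood at 1624, 1865 and 2290 in wild-type embryos. *Beta-s* fell by 1.46 ± 0.161 on the log2 scale (2.75-fold lower, edgeR adjusted *P* = 0.00828), and all 17 alternatives called it. Reads are shared with the other adult gene: 58.7% of the 150-base windows of the *Hbb-bs* transcript also occur in *Hbb-bt*, which has no row in the tables, and the treatment of such reads is not given in the sources used here. The adult alpha genes *Hba-a1* and *Hba-a2*, which share 48.4% of their windows, reached at most 1 count per library and carry no information here.

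Of all beta-like counts in the *Carm1* line, *Hbb-bs* took 11.1%, 12.1% and 10.1% in mutant libraries and 29.8%, 25.5% and 23.9% in wild-type libraries. *Hbb-y* took 80.3% to 83.0% in mutant and 67.7% to 73.5% in wild-type libraries, and *Hbb-bh1* took 6.91% to 7.76% and 2.47% to 2.58%. None of these ranges overlapped (exact permutation *P* = 0.1 for each of the 3 shares, the smallest possible). The beta-like counts of *Carm1* KO/KO embryos therefore held less adult and more embryonic globin, and within the embryonic part more *Hbb-bh1*. *Hbq1b*, a theta-globin gene, was also lower (log2 fold change -0.66 ± 0.204, edgeR adjusted *P* = 0.0273), although its groups overlapped.

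**Figure D3:**
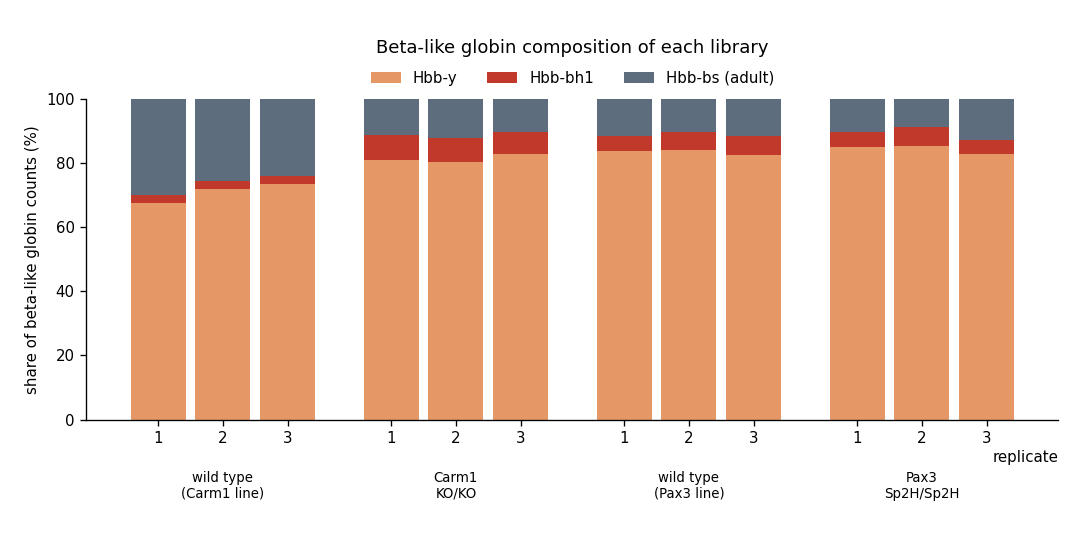
Each bar is 1 library and stacks the shares (percent) of *Hbb-y*, *Hbb-bh1* and *Hbb-bs* in its beta-like globin counts, grouped by genotype. Wild-type libraries of the *Carm1* line hold 23.9% to 29.8% *Hbb-bs*, and the other 9 libraries hold 8.62% to 12.6%. *Hbb-bs* is the *Beta-s* row alone, and its uptake of adult reads was not compared between the lines.

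Among the regulators, *Klf1* (chromosome 8, 84901928 to 84905291), the activator of adult beta-globin, was at 21.2, 21.7 and 21.0 CPM in *Carm1* KO/KO and at 31.7, 29.3 and 34.1 CPM in wild-type embryos. All mutant libraries were lower. The log2 fold change was -0.57 ± 0.0761 (1.49-fold lower, edgeR adjusted *P* = 1.88e-06), and every alternative called it, between -0.63 and -0.51.

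*Gata1* (chromosome X, 7959260 to 7978071), which works with KLF1 at most red cell genes, gave 15.4, 14.2 and 10.7 CPM in *Carm1* KO/KO libraries and 20.0, 21.2 and 21.0 CPM in their wild-type counterparts. The groups were again apart. *Gata1* fell by 0.62 ± 0.101 on the log2 scale (1.54-fold lower, edgeR adjusted *P* = 4.65e-05), and it was called under all 17 alternatives.

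*Sox6* (chromosome 7, 115470872 to 116038796), a repressor of embryonic globin that also acts in cartilage and neurons, was at 58.4, 60.6 and 59.7 CPM in *Carm1* KO/KO and at 73.5, 69.4 and 67.8 CPM in wild-type embryos. This decrease was small but clear of the spread, at -0.24 ± 0.0525 log2 (1.18-fold lower, edgeR adjusted *P* = 0.00203, called under all 17 alternatives). *Bcl11a* (chromosome 11, 24078056 to 24174123), the other repressor, which neurons express too, was at 132, 136 and 138 CPM against 137, 151 and 144 CPM. Its groups overlapped, and its log2 fold change was -0.09 ± 0.0464 (edgeR adjusted *P* = 0.206).

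*Myb* (chromosome 10, 21124935 to 21160984) was at 16.9, 21.1 and 18.1 CPM in *Carm1* KO/KO and at 15.0, 16.6 and 16.97 CPM in wild-type embryos. The groups overlapped by a single library. The log2 fold change of 0.20 ± 0.0931 did not pass the test (edgeR adjusted *P* = 0.153) and was called under none of the 17 alternatives.

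In *Pax3* Sp2H/Sp2H embryos only *Bcl11a* among the 8 genes was called, lower, where 24.5% of the 15724 genes tested were called (14.0% higher and 10.5% lower). Groups did not overlap for 1 of the 8 genes, *Myb*, against 39.6% of all genes tested. The median change was 0.02 over the 8 genes and -0.003 over all tested. With only 8 genes, these shares were not tested against those of all genes.

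*Hbb-bh1* was at 435, 403 and 375 CPM in *Pax3* Sp2H/Sp2H and at 312, 408 and 303 CPM in the wild-type embryos of the line. The groups overlapped through wild-type replicate 2. The log2 fold change was 0.25 ± 0.115 (edgeR adjusted *P* = 0.164), and without that library it was 0.40 (edgeR adjusted *P* = 0.000245).

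For *Hbb-y* the values were 7640, 5682 and 7001 CPM in mutant and 5646, 6058 and 4181 CPM in wild-type embryos. *Hba-x* was at 1677, 1487 and 1319 CPM against 1608, 1698 and 1152 CPM. Both genes overlapped between the groups, with log2 fold changes of 0.36 ± 0.192 (edgeR adjusted *P* = 0.269) and 0.01 ± 0.171 (edgeR adjusted *P* = 0.980).

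The embryonic composition of the *Pax3* line showed no shift like that of the *Carm1* line. *Hbb-bh1* took 5.39%, 6.62% and 5.08% of embryonic beta-like counts in mutant and 5.23%, 6.31% and 6.75% in wild-type libraries (exact permutation *P* = 0.7). *Hbb-bs* took 10.05%, 8.62% and 12.6% of beta-like counts against 11.5%, 10.3% and 11.6% (exact permutation *P* = 0.6). *Hba-x* counts per embryonic beta-like count were 0.208, 0.244 and 0.179 in mutant and 0.270, 0.263 and 0.257 in wild-type libraries. Here the groups did not overlap, and mutants were lower (0.210 ± 0.0329 against 0.263 ± 0.00642, exact permutation *P* = 0.1, the smallest possible).

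*Bcl11a* was at 143, 127 and 134 CPM in *Pax3* Sp2H/Sp2H and at 154, 138 and 162 CPM in wild-type embryos. The groups overlapped, and the log2 fold change was -0.17 ± 0.0610 (edgeR adjusted *P* = 0.0434). The call was lost under 8 of 17 alternatives. The edgeR adjusted *P* was 0.20 and 0.125 without mutant replicates 2 and 3 and 0.101 and 0.247 without wild-type replicates 1 and 3. It was 0.0574 with at least 10 counts in every library. DESeq2 gave an adjusted *P* of 0.0622, and 0.0836 with a Y-linked term. Length and GC offsets brought the log2 fold change of *Bcl11a* to -0.06 (edgeR adjusted *P* = 0.541). *Myb* was at 15.2, 15.8 and 15.5 CPM against 15.9, 20.6 and 18.3 CPM. Its mutant libraries were all lower, but the log2 fold change of -0.23 ± 0.0970 did not pass the test (edgeR adjusted *P* = 0.0774), and without wild-type replicate 1 it did (edgeR adjusted *P* = 0.0204).

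*Klf1* ranged from 23.9 to 35.7 CPM in *Pax3* Sp2H/Sp2H and from 27.3 to 32.1 CPM in wild-type embryos. *Gata1* ranged from 15.0 to 16.1 against 14.00 to 16.98 CPM, and *Sox6* from 61.9 to 64.6 against 64.5 to 69.0 CPM. All 3 overlapped between the groups, with edgeR adjusted *P* values of 0.800, 0.841 and 0.399.

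Whether a gene changed differently in the 2 lines was tested as an interaction in one edgeR fit of all 12 libraries, where 19.1% of 16292 genes were called. It called 4 of the 8 genes. *Hbb-bh1* had a log2 change larger by 1.07 ± 0.276 in the *Carm1* line (edgeR adjusted *P* = 0.0302). *Klf1* changed by -0.61 ± 0.149 (edgeR adjusted *P* = 0.00509) and *Gata1* by -0.65 ± 0.150 (edgeR adjusted *P* = 0.00230) relative to the *Pax3* line.

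*Myb* differed by 0.45 ± 0.141 (edgeR adjusted *P* = 0.0224), with opposite signs in the 2 lines, although neither line alone called it. The interaction of *Hba-x* was 1.10 ± 0.328 and missed the threshold (edgeR adjusted *P* = 0.0505), although 7 of 21 alternatives called it, among them DESeq2 (adjusted *P* = 0.00648) and edgeR with length and GC offsets (adjusted *P* = 0.0212). Those of *Hbb-y*, *Bcl11a* and *Sox6* were not called (edgeR adjusted *P* = 0.489, 0.472 and 0.164), and *Sox6* was called under 1 alternative, the same offsets (edgeR adjusted *P* = 0.00959). The call of *Hbb-bh1* was lost when any 1 of 8 of the 12 libraries was left out (edgeR adjusted *P* of 0.0509 to 0.0750): *Carm1* KO/KO replicates 1, 2 and 3, *Pax3* Sp2H/Sp2H replicates 1, 2 and 3 and wild-type replicate 2 of each line. That of *Myb* was lost without *Carm1* KO/KO replicate 2 (0.10), *Carm1*-line wild-type replicate 1 (0.0581) or *Pax3*-line wild-type replicate 2 (0.0727), and that of *Klf1* with length and GC offsets (0.172), all edgeR adjusted *P* values.

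**Figure D4:**
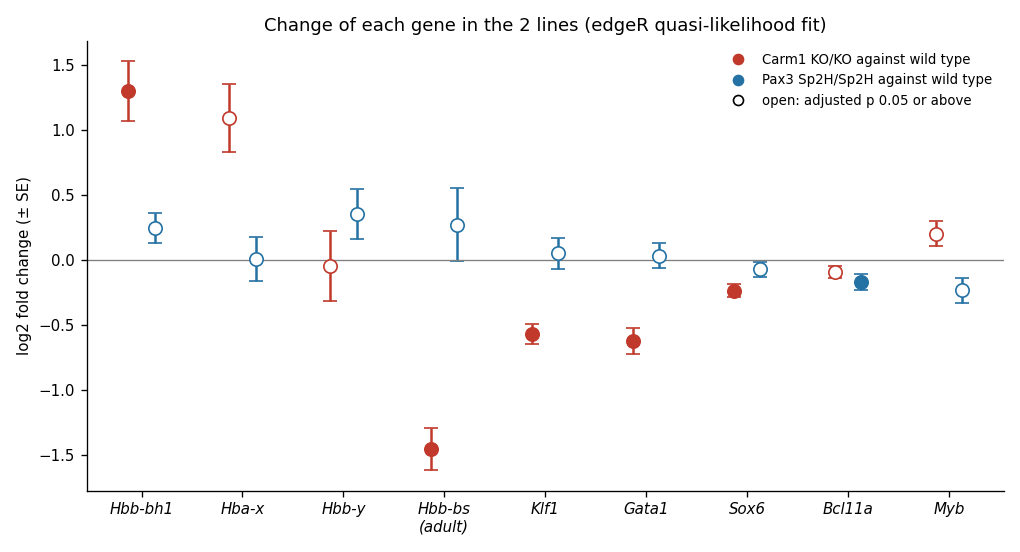
Points are log2 fold changes ± SE (vertical axis), mutant over wild type, for each gene in the *Carm1* line and the *Pax3* line, filled where the edgeR adjusted *P* was under 0.05. *Hbb-bh1* lies at 1.30 in the *Carm1* line and 0.25 in the *Pax3* line, and *Klf1* and *Gata1* lie at -0.57 and -0.62 against 0.05 and 0.03.

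Levels per length (CPM per kilobase of exon) set the genes in order. *Hbb-y* led in every group, with means of 8144 ± 733 in *Carm1* KO/KO, 8419 ± 2639 in its wild type, 10702 ± 1577 in *Pax3* Sp2H/Sp2H and 8365 ± 1559 in its wild type. *Hba-x* followed at 2378, 1111, 1865 and 1855 CPM per kilobase and *Hbb-bh1* at 763, 309, 659 and 556, with no overlap between neighbours in any group. The regulators lay far below. In *Carm1* wild-type embryos *Klf1* (20.7) and *Bcl11a* (18.9) overlapped on this scale, while in *Carm1* KO/KO embryos *Klf1* (13.9) was below *Bcl11a* (17.8) without overlap.

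The 2 wild-type groups differed as well. The *Hbb-bh1* share of embryonic beta-like counts was 3.45 ± 0.173% in the *Carm1* line and 6.10 ± 0.781% in the *Pax3* line, and *Hbb-bs* took 26.4 ± 3.02% and 11.1 ± 0.710% of beta-like counts. Line, strain and colony cannot be told apart here. In *Hbb-bs* share the *Carm1* KO/KO libraries stood nearer to both groups of the *Pax3* line than to their own wild type. That share rests on the *Beta-s* row alone, as the globin rows *Hbb-b1* and *Hbb-b2* were at 0 counts in every library. Whether *Beta-s* takes up adult beta-globin reads equally in the 2 strain backgrounds was not tested.

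The genes around the switch were described by lists. Of 20 DNA-binding partners of the switch, 12 were called in *Carm1* KO/KO embryos, 11 lower and 1 higher (median log2 change -0.28, 0.001 over all genes tested), where 13.3% of all genes tested were called and 7.83% were lower. *Tal1*, a GATA1 partner that specifies blood, fell by 0.58 ± 0.0526, *Lmo2*, its bridging cofactor, fell by 0.42 ± 0.0645, and *Nfia*, a factor of red cell commitment, fell by 0.32 ± 0.0499 on the log2 scale (edgeR adjusted *P* = 9.66e-10, 1.63e-05 and 2.30e-05). The 1 gene called higher was *Gata2*, the GATA factor of progenitors, at 0.27 (edgeR adjusted *P* = 0.0142). In *Pax3* Sp2H/Sp2H embryos 5 of the 20 were called, 3 higher and 2 lower (median -0.02), a share near the 24.5% of all genes called in that line. The 3 with the smallest adjusted *P* were *Ldb1* (0.34 ± 0.0568), *Lmo2* (0.27 ± 0.0769) and *Gata2* (0.28 ± 0.0806), all higher (edgeR adjusted *P* = 7.66e-05, 0.0106 and 0.0135).

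Other red cell genes were lower in *Carm1* KO/KO embryos too, where 7.83% of all genes tested were called lower. Of 19 red cell membrane and receptor genes 16 were called, all lower (median log2 change -0.48), among them the anion exchanger *Slc4a1* (-0.47 ± 0.0528), the Rh antigen *Rhd* (-0.55 ± 0.0658) and *Hemgn* (-0.76 ± 0.0739), with edgeR adjusted *P* values of 2.97e-07, 3.00e-07 and 3.75e-07. Of 12 heme synthesis genes 9 were called, all lower (median -0.29), with *Cpox* at -0.70 ± 0.0455, *Fech* at -0.47 ± 0.0505 and the mitochondrial iron importer *Slc25a37* at -0.36 ± 0.0446 (edgeR adjusted *P* = 5.33e-13, 4.48e-08 and 4.04e-07). In *Pax3* Sp2H/Sp2H embryos 4 of the 19 (2 higher, 2 lower, median -0.20) and 2 of the 12 (both higher, median 0.01) were called, where 24.5% of all genes were called. In whole embryos fewer red cells and less RNA per red cell cannot be told apart.

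**Figure D5:**
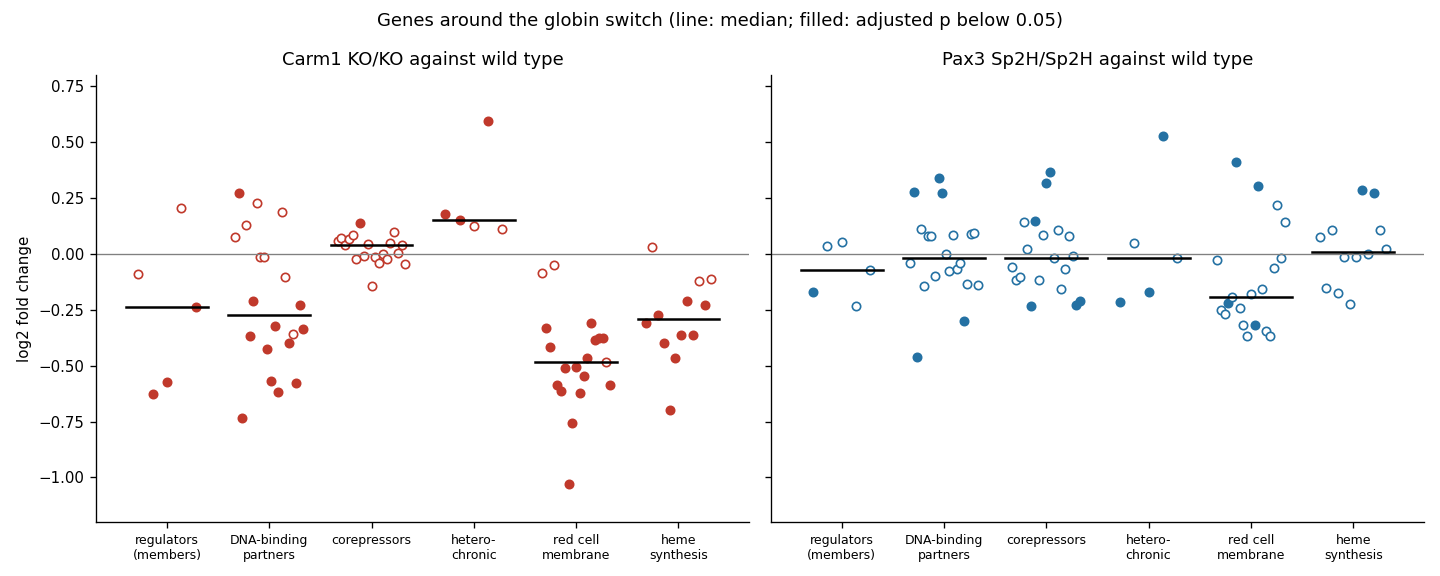
Each point is the log2 fold change (vertical axis) of 1 gene of a list in the *Carm1* line (left panel) or the *Pax3* line (right panel), filled where called, with a line at the list's median. The list marked DNA-binding partners also holds cofactors. Red cell membrane and heme synthesis genes of the *Carm1* line lie below 0 with 1 exception at 0.03, with medians of -0.48 and -0.29.

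Set against the mean log2 CPM of the 19 red cell membrane and receptor genes in the same library, *Hbb-bh1* stood at 3.18, 3.22 and 3.26 log2 units in *Carm1* KO/KO and at 1.05, 1.42 and 1.73 in wild-type embryos. The difference of means was 1.82, that of *Hba-x* was 1.61 and that of *Hbb-y* was 0.47, all without overlap. *Beta-s* stayed lower, by -0.97, also without overlap. *Klf1* differed by -0.10 and *Gata1* by -0.17 on this relative scale, where *Gata1* overlapped. *Sox6* was 0.24 and *Bcl11a* 0.39 higher, both without overlap. In mean CPM neither of these 2 was higher, while the reference genes were lower. *Myb* was 0.68 higher relative to them, at -1.56, -1.29 and -1.44 against -2.17, -2.03 and -2.13. Exact permutation *P* values were 0.1, the smallest possible, for these genes except *Gata1* (0.4). With the 12 heme synthesis genes as the reference, the differences were 1.64 for *Hbb-bh1*, 1.43 for *Hba-x*, -1.15 for *Beta-s*, -0.28 for *Klf1*, -0.35 for *Gata1*, 0.20 for *Bcl11a* and 0.50 for *Myb*, all without overlap (exact permutation *P* = 0.1). Those of *Hbb-y* (0.29, exact permutation *P* = 0.4) and *Sox6* (0.06, exact permutation *P* = 0.6) overlapped on that scale.

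Relative to the same red cell genes, *Hbb-y* was higher in all 3 *Pax3* Sp2H/Sp2H libraries (7.25, 7.11 and 7.15 log2 units) than in the 3 wild-type libraries (6.58, 6.90 and 6.60), with an exact permutation *P* of 0.1, and relative to the heme synthesis genes it was 0.34 higher, also without overlap. *Hbb-bh1* and *Hba-x* differed by 0.37 and 0.14 in the same direction, with overlapping groups (exact permutation *P* = 0.2 and 0.5).

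Markers of other cell types moved in the same *Carm1* KO/KO libraries, where 13.3% of all genes tested were called. Of 10 hepatoblast genes, the cells of the fetal liver, 8 were called, all lower (median log2 change -1.03), and their summed CPM was 856 to 1035 in mutant and 1554 to 1881 in wild-type libraries. Of 5 mast cell genes tested, out of 8 listed, 4 were called, all higher (summed CPM 68.6 to 70.3 against 49.5 to 52.1). *Kit* made up most of that sum (means of 50.7 against 44.6 CPM) and is also in the progenitor list. Of 8 progenitor genes 3 were called higher and 1 lower (289 to 297 against 245 to 256 CPM), and of 9 megakaryocyte genes 2 were called, both lower (59.5 to 65.3 against 74.0 to 91.9 CPM). Among genes of other tissues that express *Sox6* or *Bcl11a*, 4 of 10 neuron genes and 5 of 9 cartilage genes were called, all lower. No listed marker of these types was at 0 in all libraries of the *Carm1* line, and the part of these cell types in the globin and regulator results was not tested. In *Pax3* Sp2H/Sp2H embryos, where 24.5% of all genes were called, hepatoblast genes summed to 976 to 1067 against 1152 to 1387 CPM, with 3 of 10 called, 1 higher and 2 lower. Neuron genes summed to 1642 to 1779 against 1810.2 to 1993 CPM there, with 4 of 10 called, all lower, in the same libraries as the lower *Bcl11a*, and their part in that result was not tested. Of the other lists in that line 0 of 3 mast cell, 0 of 8 progenitor, 2 of 9 megakaryocyte (both higher) and 1 of 9 cartilage genes (higher) were called by edgeR, with 0 of the mast cell and progenitor genes at an unadjusted *P* under 0.05, and 2 of the 8 listed mast cell genes were at 0 in all libraries of the line.

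The genes most like each member across the 12 libraries were sought by Pearson correlation of log2 CPM, centred on the mean of each line, among 14494 genes. For *Hbb-bh1* they were *BC021767* (r = 0.975), *Shh* (0.958) and *Hba-x* (0.956), and for *Hba-x* they were *BC021767* (0.961), *Hbb-bh1* (0.956) and *Bin3* (0.949). Genes close to *Klf1* included *Tal1* (0.948) and *Tspan33* (0.947), and *Gata1* was most like *Pter* (0.946), *Darc* (0.931) and *Pklr* (0.923). *Hbb-y* stood with *Kcnf1* (0.920), *Bcl11a* with *Lpar4* (0.951), *Myb* with *Cldn12* (0.941) and *Sox6* with *Abcc2* (0.960) in the highest place. Between members the correlation was 0.96 for *Hbb-bh1* with *Hba-x*, 0.36 for *Hbb-bh1* with *Hbb-y*, -0.93 for *Hbb-bh1* with *Sox6* and 0.72 for *Klf1* with *Gata1*. These values describe libraries that share their genotype groups and their scaling, and carry no test.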

How the data were processed

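RNA of 12 whole embryos was sequenced with paired reads of 150 bases, from samples with an RNA integrity number above 9. The deposited values are raw counts per gene, which the authors made with STAR (mm10) and featureCounts. Versions, strand setting and the treatment of multiply aligned reads are not given in the sources used here. Groups and replicate numbers came from the sample labels. Each line was tested on its own in edgeR 4.0.16 under R 4.3.3, using TMM, filterByExpr and quasi-likelihood F tests, and the lines were compared as an interaction over 12 libraries. The SE is the log2 fold change divided by the square root of F. Shares were compared by 2-sided exact permutation tests, with 95% Wilson intervals for counting error. The edgeR tests were also run on simulated counts, with the outcome not reported here.

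The members and lists were chosen with earlier results of these data known. The 8 members were named in full, up to 3 genes per list with the smallest adjusted *P* in each line, and genes among the 3 most like each member, not all of which are reported here. The shares with *Hbb-bs*, the *Hba-x* ratio and the levels relative to red cell genes were chosen after seeing the data, as was naming *Gata2* and *Hbq1b*. Symbols were matched to GENCODE (GRCm38) as written (21777) or by an older symbol (1277), and 366 were unmatched. *Beta-s* was matched to *Hbb-bs* through a RefSeq synonym. Log2 CPM for likeness used an offset of 0.5 and genes of at least 1 CPM on average in both lines. Alternatives were DESeq2 1.42.0, other scalings and filters, a replicate block, a Y-linked term, length and GC offsets, one fit of all libraries and leaving out each library.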

Additional observations from a re-analysis of the deposited data

Results flagged for a closer look

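The change between mutant and wild type differed between the lines, by edgeR's interaction test, for 4 of the 8 genes and for *Hbb-bs*. On the log2 scale, the *Carm1* line minus the *Pax3* line gave 1.07 for *Hbb-bh1*, -0.61 for *Klf1*, 0.45 for *Myb*, -0.65 for *Gata1* and -1.72 for *Hbb-bs* (*Beta-s*; edgeR adjusted *P* = 0.00829, called under all 21 alternatives). *Hba-x* counts per embryonic beta-like count moved in opposite directions in the lines, with every *Carm1* KO/KO library above its wild types (difference of means 0.177) and every *Pax3* Sp2H/Sp2H library below its own (-0.0529), and the difference between these was not tested.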

How the results depend on the processing

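*Klf1*, *Gata1*, *Sox6* and *Beta-s* were called in the *Carm1* line under all 17 alternatives, while *Hbb-bh1* was called under 12 and *Hba-x* under 6. Of all genes, 2106 were called in the *Carm1* line, 854 with a Y-linked term in DESeq2, 3207 with length and GC offsets, and 1224 to 2290 without 1 library. In the *Pax3* line 3851 were called, and 2454 to 4103 without 1 library. Of the 8 genes, 0 were called in the *Pax3* line by DESeq2, with its Y-linked term, with at least 10 counts in every library, or with the offsets (2, 1, 2 and 0 at an unadjusted *P* under 0.05), 2 with the replicate block, and 0 to 2 without 1 library. The interaction called 2 to 5 of them without 1 library. With the replicate block 1787 genes were called in the *Carm1* line and 4177 in the *Pax3* line, *Hbb-bh1* lost its call in the *Carm1* line (edgeR adjusted *P* = 0.105) and gained one in the *Pax3* line (0.0219), and *Hba-x* gained one in the *Carm1* line (3.29e-05). Same-numbered libraries did not deviate together in the *Carm1* line (r of -0.05, -0.00 and -0.05). In the *Pax3* line r was 0.17, -0.08 and 0.25, where pairs of unlike number ranged from -0.36 to 0.24. With so few pairs these values cannot decide whether the numbers mark a pairing in that line. Signs turned only where the main edgeR fit made no call. Of the genes that turned in the *Pax3* line, *Hbb-bh1* was called under 2 and *Beta-s* under 1 of the 17 alternatives. *Hbb-y* in the *Carm1* line was 0.20 with either Y-linked term and 0.01 to 0.20 without *Carm1* KO/KO replicate 1 or wild-type replicate 3. In the *Pax3* line the offsets gave -0.01 for *Hbb-bh1*, -0.32 for *Hba-x*, -0.25 for *Klf1*, 0.05 for *Sox6*, -0.12 for *Gata1* and -0.03 for *Beta-s*, and -0.00 for the interaction of *Bcl11a*. *Hba-x* was -0.00 in one fit of all libraries, -0.07 with either Y-linked term, and -0.14 to 0.12 without 1 library. *Klf1* was -0.07 to 0.20 and *Gata1* -0.03 to 0.12 without 1 library. The *Hbb-bs* share of the *Pax3* line differed by -1.79 to 0.201 percentage points without 1 library, above 0 without mutant replicate 2. The causes were not tested. With 3 libraries a group, exact tests cannot go below 0.1, and 0.2 with 1 left out.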

Other observations

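Of 19 corepressors of globin genes, 1 was called in *Carm1* KO/KO embryos, the deacetylase *Hdac1* (log2 fold change 0.14 ± 0.0435, edgeR adjusted *P* = 0.0311), with a median of 0.04 over the list, where 13.3% of all genes tested were called. In *Pax3* Sp2H/Sp2H embryos 6 of the 19 were called, 3 higher and 3 lower, against 24.5% of all genes, with the smallest adjusted *P* for *Mbd3* (0.36 ± 0.0562) and *Mbd2* (0.32 ± 0.0665), both parts of the NuRD family of complexes, and *Sin3a* (-0.21 ± 0.0525), with edgeR adjusted *P* values of 2.84e-05, 9.83e-04 and 0.00408.

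Of 5 heterochronic regulators, RNA-binding and chromatin proteins of early developmental stages, 3 were called in *Carm1* KO/KO embryos, all higher, where 5.49% of all genes tested were called higher. *Lin28a*, which blocks maturation of let-7, was at 6.04 ± 0.629 CPM against 4.07 ± 1.08 CPM (log2 fold change 0.59 ± 0.177, edgeR adjusted *P* = 0.0214), *Hmga2* differed by 0.18 ± 0.0437 and *Igf2bp1* by 0.15 ± 0.0413 (edgeR adjusted *P* = 0.00529 and 0.0123). In *Pax3* Sp2H/Sp2H embryos, where 24.5% of all genes were called, *Lin28a* was also higher (0.53 ± 0.188, edgeR adjusted *P* = 0.0430), whereas *Hmga2* (-0.22 ± 0.0661) and *Igf2bp3* (-0.17 ± 0.050) were lower (edgeR adjusted *P* = 0.0172 and 0.0140).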
